A study of Mus musculus with 6 samples.

Results

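The SLC25 genes encode the mitochondrial carrier family, the transporters that move metabolites, nucleotides, inorganic ions and cofactors across the inner mitochondrial membrane. Genes of the mRNA table named Slc25a followed by a digit were taken, which gave 47 genes of the 21954 in the table, each identified by 1 Ensembl gene ID. They were compared between thymuses of C57BL wild-type mice aged 5 weeks that were unexposed (control, 3 libraries) and thymuses of mice of the same strain and age that were given 6 Gy of X-rays and collected 24 h later (irradiated, 3 libraries). Both groups were killed with sodium pentobarbital, and the labels name no transgene or other agent. Polyadenylated RNA of whole thymus was sequenced, and the deposited level of a gene is its FPKM, a fragment count scaled to transcript length and library depth. Nothing in the labels says that each library is a separate animal, and the p-values here therefore reflect variation among 6 libraries, which may be technical in part.

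Most SLC25 proteins share a fold of repeated pairs of membrane helices and exchange 1 substrate for another, and they are made in the cytosol and inserted into the inner membrane by the TIM22 complex. The ADP/ATP carriers exchange matrix ATP for cytosolic ADP, the phosphate carrier brings in the phosphate for ATP synthesis, and the citrate, dicarboxylate and aspartate/glutamate carriers link the tricarboxylic acid cycle to the cytosol. The thymus is filled mostly with cortical double-positive thymocytes, small lymphocytes that die readily after X-rays, while stromal cells and macrophages are more resistant.

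The cells left in the tissue differed between the groups. Estimated depth was 2.19e+07 to 2.56e+07 fragments per library, so that 1 fragment in a transcript of 1 kb was worth 0.0391 to 0.0456 FPKM. Markers of double-positive thymocytes, 13 genes, summed to between 2201 and 2526 FPKM in control thymus but only between 86.2 and 141 FPKM after irradiation, with 12 of the 13 lower, and all 10 macrophage and all 10 fibroblast markers tested were higher. In bulk tissue, fewer cells of a type and less RNA per cell cannot be told apart. The irradiated libraries also differed from each other. Pearson's r between libraries over log2 levels was at least 0.979 among the controls and 0.824 to 0.931 among the irradiated libraries, and markers of fat, muscle, airway and blood varied between the latter, with values given beside the results below.

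Limma fitted on log2(FPKM + 0.1) over all 14001 genes averaging at least 0.5 FPKM, with Benjamini-Hochberg adjustment over those genes, tested 41 of the 47 SLC25 genes. A gene was called at an adjusted p under 0.05, and a log2 fold change is irradiated minus control on the log2(FPKM + 0.1) scale, which understates the change of low genes. Of the 41 genes, 19 (46.3%) were called higher after irradiation, beside 42.4% of all genes tested, and 3 (7.32%) were called lower, beside 20.9% of all genes. The share called higher was thus near the background. Of the 19 genes that missed the threshold, 7 had a positive and 12 a negative fold change. In 20 SLC25 genes every irradiated library was above every control (48.8%, beside 46.1% of all genes), in 3 every one was below (7.32%, beside 24.7%), and in 18 the groups overlapped. Asking also for a log2 fold change of 1 or more in size left 12 of the 41 genes higher, beside 33.6% of all genes, and 1 lower, beside 10.3%.

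How many SLC25 genes were called in each direction depended on how libraries were scaled. The median log2 fold change of the 41 genes was 0.51, beside 0.40 for all genes. Median-ratio scaling moved the median of all genes to 0.02 and that of the SLC25 genes to 0.13. Of the 41 SLC25 genes, 10 were then called higher (beside 33.2% of all genes) and 9 lower (beside 32.6%). Quantile normalization moved the medians to -0.07 and 0.22, with 6 SLC25 genes called higher (beside 25.0% of all genes) and 14 lower (beside 31.4%). Under equal summed FPKM 16 were higher (beside 39.4% of all genes) and 3 lower (beside 20.7%). Single libraries counted too: 12 genes were called higher without control 3, and 7 lower without irradiated 1. Here and below, the share of all genes or transcripts called with a library left out was not counted. The median log2 fold change was 0.33 without irradiated 3, beside 0.35 for all genes. It was also slightly below that of all genes without control 2 (0.401 beside 0.408) and without irradiated 1 (0.437 beside 0.442). It stayed above without control 1 (0.48 beside 0.40), control 3 (0.52 beside 0.46) and irradiated 2 (0.405 beside 0.315).

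**Figure D1:**
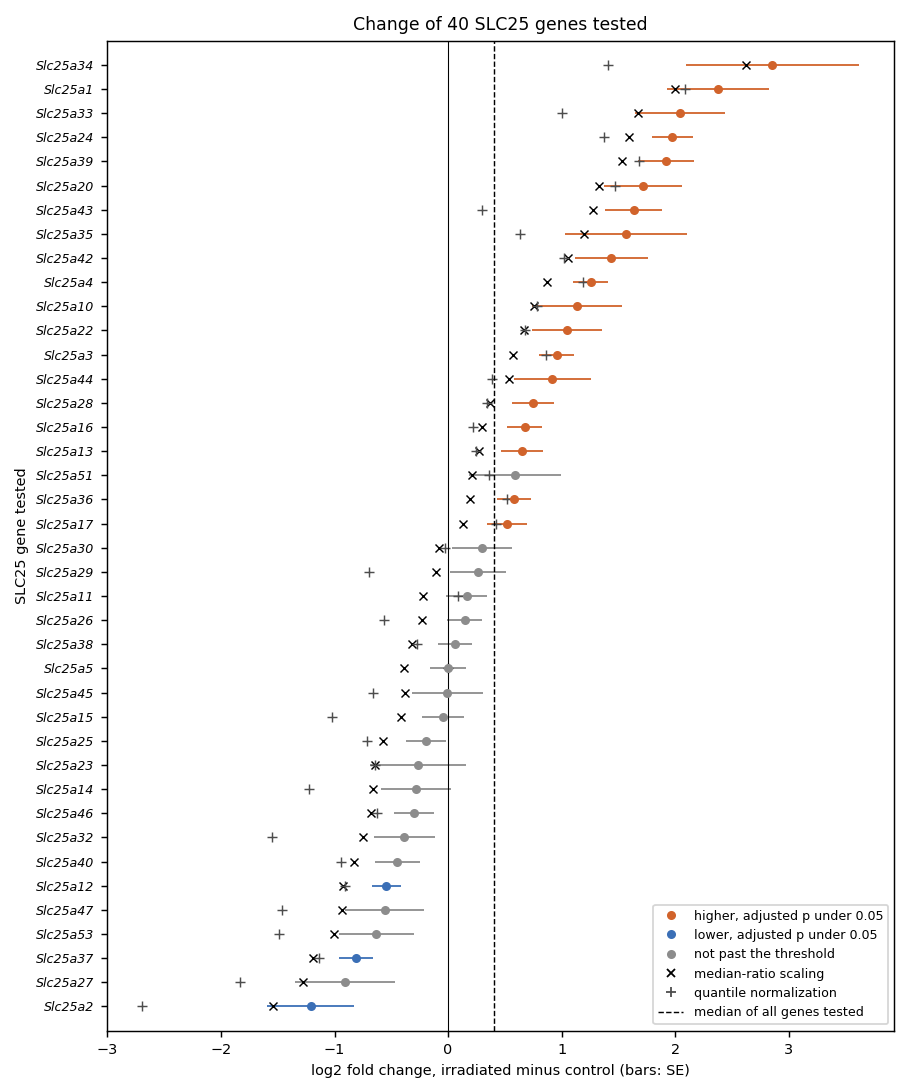
Log2 fold change (irradiated minus control, log2(FPKM + 0.1) scale) of 40 of the 41 SLC25 genes tested, with bars of 1 standard error, coloured by call, beside the values under median-ratio scaling (crosses) and quantile normalization (plus signs). The dashed line marks the median of all genes tested, 0.40, and the genes run from Slc25a34 at 2.85 to Slc25a2 at -1.21.

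Under all 4 scalings, 6 genes were called higher: Slc25a1 (citrate), Slc25a24 (ATP-Mg/phosphate), Slc25a39 (glutathione), Slc25a20 (carnitine/acylcarnitine), Slc25a4 (ADP/ATP) and Slc25a3 (phosphate). These 6 were also called with each library left out in turn. The 3 genes called lower, Slc25a12 (aspartate/glutamate), Slc25a37 (mitochondrial iron import) and Slc25a2 (ornithine), were lower under all 4 scalings, and Slc25a12 and Slc25a37 also with each library left out. Slc25a2 passed the filter on low values only through its controls.

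Sequence upstream of the start was printed for 3 of the genes that rose under every scaling and for Slc25a5, the most abundant SLC25 gene, which was not called. The sequences are from RefSeq promoters on GRCm38.p6, 5′ to 3′ on the gene's strand, ending before any annotated exon, and 36 of the 47 genes matched an entry. Capitals mark letters that match 1 of 4 motifs on either strand. The E-box is spelled CACGTG. The CCAAT box is searched by the 5 letters of its name. The ETS motif is spelled CCGGAAG. The motif of the transcription factor NRF1 is the first capital run in the Slc25a3 sequence. The stretches are chr16:17928220-17928469 (minus strand) for Slc25a1, chr9:108661886-108662087 (plus strand) for Slc25a20, chr10:91124060-91124217 (minus strand) for Slc25a3 and chrX:36795347-36795596 (plus strand) for Slc25a5.
Slc25a1: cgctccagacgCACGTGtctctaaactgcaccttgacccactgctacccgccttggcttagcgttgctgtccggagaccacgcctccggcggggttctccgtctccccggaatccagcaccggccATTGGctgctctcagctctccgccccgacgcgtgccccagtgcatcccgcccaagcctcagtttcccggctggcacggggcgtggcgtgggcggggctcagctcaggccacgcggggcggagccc
Slc25a20: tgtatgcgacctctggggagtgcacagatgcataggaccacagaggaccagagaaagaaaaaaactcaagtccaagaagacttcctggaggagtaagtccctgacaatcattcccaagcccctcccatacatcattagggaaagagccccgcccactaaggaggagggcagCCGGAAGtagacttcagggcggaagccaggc
Slc25a3: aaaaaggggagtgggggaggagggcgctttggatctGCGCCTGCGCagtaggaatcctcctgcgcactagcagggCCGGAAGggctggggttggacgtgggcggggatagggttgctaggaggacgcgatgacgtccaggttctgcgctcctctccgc
Slc25a5: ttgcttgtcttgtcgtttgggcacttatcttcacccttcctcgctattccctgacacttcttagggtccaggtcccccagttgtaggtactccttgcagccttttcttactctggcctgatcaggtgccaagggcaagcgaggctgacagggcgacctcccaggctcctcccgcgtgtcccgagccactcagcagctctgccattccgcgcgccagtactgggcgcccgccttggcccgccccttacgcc
The Slc25a1 stretch held 1 E-box and 1 CCAAT box, that of Slc25a20 1 ETS motif, and that of Slc25a3 1 NRF1 motif and 1 ETS motif. No match to these letters lay in the Slc25a5 stretch.

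Over the windows from 250 bases before to 50 bases after the start, the E-box was in 8 of 46 SLC25 promoters (17.4%), beside 7.15% of all promoters and 7.84% of those of protein-coding genes. They belonged to 7 genes, of which 4 were called higher (Slc25a1, Slc25a13, Slc25a33 and Slc25a36), 2 missed the threshold and 1 was too low to test. Of all 36 SLC25 genes with a promoter entry, 17 were called higher, 1 was lower, 13 missed the threshold and 5 were not tested. Whether the E-box goes with the calls was not tested. The NRF1 motif was in 4.35% of the SLC25 promoters and 4.60% of all, the ETS motif in 15.2% and 8.86%, the CCAAT box in 47.8% and 37.4%, and TATAAA in 4.35% and 13.6%. Among promoters of protein-coding genes these shares were, in the same order, 6.38%, 11.6%, 38.2% and 12.6%. A match is a description of the letters and not of binding.

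The carriers of adenine nucleotides and phosphate number 8 genes, of which 6 were tested, 3 rose and none fell. The same 3 rose under each scaling, and median-ratio scaling and quantile normalization each called 1, Slc25a25, lower. The ADP/ATP carriers moved apart. Slc25a4, the ADP/ATP carrier that prevails in heart and muscle (also called ANT1, chr8:46206797-46211284), stood at 31.4, 31.2 and 31.0 FPKM in control libraries 1, 2 and 3 and at 79.9, 84.6 and 61.6 FPKM in irradiated libraries 1, 2 and 3. The groups did not overlap, and the mean rose from 31.2 ± 0.186 (SD, n = 3) to 75.4 ± 12.1 FPKM (log2 fold change 1.25, SE 0.16, limma adjusted p = 0.000564). Slc25a5, the ADP/ATP carrier of dividing cells (ANT2, chrX:36795651-36798807), stood at 160.4, 162 and 164 FPKM in the controls and at 155, 166 and 166 FPKM in the irradiated libraries. It was the highest SLC25 gene in both groups, and the groups overlapped (log2 fold change -0.0016, SE 0.16, adjusted p = 0.994). Its value was -0.39 under median-ratio scaling (adjusted p = 0.068). The log2 ratio of Slc25a4 to Slc25a5 within a library is unchanged by a common factor for all its genes, though quantile normalization can change it. This ratio came to -2.35, -2.38 and -2.40 in control libraries against -0.95, -0.97 and -1.43 after irradiation. The difference was 1.26 (exact two-sided permutation p = 0.1, the smallest that 3 against 3 allows). Slc25a5 shares at least 96.8% of its bases over long stretches with the pseudogenes Gm5529 and Gm5560, so its level is uncertain. Cell division markers, summing to 404 to 510 FPKM in the controls and 29.4 to 76.6 FPKM in the irradiated libraries, fell in all 10 of 10 genes, and their part in the level of Slc25a5 was not tested.

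Slc25a3, the phosphate carrier (chr10:91116574-91124059), was the second highest SLC25 gene in both groups, with 68.3, 63.4 and 68.9 FPKM in the controls and 113, 134 and 143 FPKM in the irradiated libraries. Each irradiated library was above all controls, and the mean rose from 66.9 ± 3.03 to 130.3 ± 15.3 FPKM (SD, n = 3; log2 fold change 0.96, SE 0.15, adjusted p = 0.00162). The calcium-regulated ATP-Mg/phosphate carriers, which set the adenine nucleotide pool of the matrix, did not move alike. Slc25a24 (chr3:109123149-109168457) stood at 2.49, 2.36 and 2.82 FPKM in the controls and at 9.12, 9.81 and 12.2 FPKM after irradiation. Its irradiated libraries lay close together and far above the controls (log2 fold change 1.97, SE 0.18, adjusted p = 0.000169), and its adjusted p was the lowest of all SLC25 genes. Slc25a25, with 6.31, 8.31 and 7.37 FPKM against 6.35, 5.64 and 7.15 FPKM, was not called (log2 fold change -0.19, adjusted p = 0.348). Slc25a23 was level in the controls at 9.80, 10.5 and 10.5 FPKM and scattered after irradiation at 4.47, 16.7 and 8.32 FPKM, below the controls in 2 libraries and above in 1 (log2 fold change -0.26, adjusted p = 0.605). Slc25a31, the ADP/ATP carrier of germ cells, and Slc25a41 were under the filter.

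**Figure D2:**
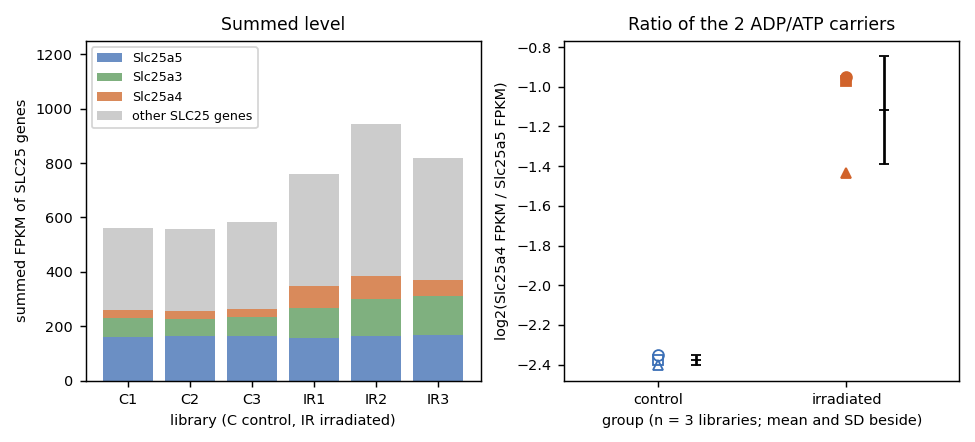
Left, summed FPKM of the 47 SLC25 genes in each library, with Slc25a5, Slc25a3 and Slc25a4 marked in colour. Right, log2 ratio of Slc25a4 to Slc25a5 in each library with the mean and SD of each group (n = 3), between -2.40 and -2.35 in the controls and between -1.43 and -0.95 in the irradiated libraries.

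Because FPKM is per length, levels could be added. The 47 genes together held 560.5, 556 and 582 FPKM in control thymus against 759.9, 942 and 818 FPKM in irradiated thymus. The irradiated sums lay above all controls, 1.48 times as high on average (exact two-sided permutation p = 0.1, the smallest possible), and the difference was 274 FPKM, or 86.3 FPKM under median-ratio scaling. Their share of all mRNA-table FPKM was 0.211%, 0.203% and 0.216% in the controls and 0.305%, 0.298% and 0.267% after irradiation (p = 0.1, exact permutation). Within the family, the share held by Slc25a5 was 28.6%, 29.2% and 28.2% in control thymus against 20.4%, 17.6% and 20.3% in irradiated thymus. That of Slc25a4 was 5.61%, 5.61% and 5.33% against 10.5%, 8.98% and 7.53%, and that of Slc25a3 was 12.2%, 11.4% and 11.8% against 14.9%, 14.2% and 17.5%. None of these 3 shares overlapped between groups (each exact permutation p = 0.1). Together the 3 genes held 46.4%, 46.2% and 45.3% against 45.8%, 40.8% and 45.4%, and these groups overlapped (exact permutation p = 0.3).

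Of the 4 carboxylate carriers, 3 were tested, 2 rose and none fell. Slc25a1, the citrate carrier that supplies cytosolic acetyl-CoA for fatty acid synthesis (chr16:17925223-17928219), stood at 5.81, 5.91 and 6.94 FPKM in the controls and at 17.7, 69.4 and 28.5 FPKM in the irradiated libraries. The groups were far apart, but the irradiated libraries differed 3.93-fold among themselves, with irradiated 2 highest (log2 fold change 2.38, SE 0.45, adjusted p = 0.00328). Slc25a10, the dicarboxylate carrier, stood at 6.45, 6.43 and 6.27 FPKM against 8.19, 27.3 and 12.7 FPKM. It had the same order of irradiated libraries (log2 fold change 1.14, SE 0.40, adjusted p = 0.0390). Its call was lost without control 1 (adjusted p = 0.0949), control 2 (0.0941), control 3 (0.0993) or irradiated 3 (0.0704), and under median-ratio scaling (0.107) and quantile normalization (0.153). Slc25a11, the oxoglutarate/malate carrier of the malate-aspartate shuttle and next in the controls after Slc25a5 and Slc25a3, stood at 41.1, 43.9 and 44.4 FPKM against 37.5, 57.1 and 52.6 FPKM. Irradiated 1 was below and the other irradiated libraries above the controls, and the gene was called only without irradiated 1 (log2 fold change 0.16, adjusted p = 0.450 over all libraries, 0.0275 without it). Slc25a21, the oxodicarboxylate carrier, was under the filter.

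Slc25a20, the carnitine/acylcarnitine carrier that brings long-chain fatty acids to the matrix for oxidation (chr9:108662088-108684641), stood at 7.85, 7.83 and 8.17 FPKM in the controls and at 18.2, 47.7 and 20.9 FPKM after irradiation. All irradiated libraries were above the controls, with irradiated 2 again highest (log2 fold change 1.71, SE 0.34, adjusted p = 0.00416). Its partners in the carnitine shuttle rose as well. Cpt1a, which makes acylcarnitines at the outer membrane, went from 21.9, 14.3 and 12.8 to 55.5, 58.7 and 52.8 FPKM, close together after irradiation (log2 fold change 1.80, adjusted p = 0.000421). Cpt2, the matrix enzyme, went from 3.85, 2.95 and 3.64 to 7.92, 39.4 and 15.0 FPKM, in the same order of irradiated libraries as Slc25a20 (log2 fold change 2.24, adjusted p = 0.00813). Cpt2 was named for its place in the shuttle after its values were seen. The white fat markers added up to 76.1, 47.1 and 52.8 FPKM in control thymus against 209.6, 2735 and 1223 FPKM in irradiated 1, 2 and 3, with 7 of 7 higher, and brown fat markers to 23.2, 6.56 and 1.92 against 17.1, 492 and 136 FPKM, with 3 of 7 higher. Their part in the levels of Slc25a1, Slc25a10 and Slc25a20 was not tested.

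Among the carriers of cofactors, all 9 genes were tested, 4 rose and none fell. Under quantile normalization 1 was higher and 3 lower, and under median-ratio scaling 2 were higher and 1 lower. The glutathione carriers Slc25a39 and Slc25a40 started at similar levels. Slc25a39 (chr11:102402985-102407946) stood at 9.31, 7.57 and 7.81 FPKM in the controls and at 22.4, 43.8 and 31.0 FPKM after irradiation, without overlap (log2 fold change 1.92, SE 0.25, adjusted p = 0.000633). Slc25a40 stood at 8.89, 8.79 and 8.19 FPKM against 8.23, 5.18 and 5.83 FPKM, with irradiated 1 within the range of the controls (log2 fold change -0.45, adjusted p = 0.0834). Slc25a40 was called lower without irradiated 1 (adjusted p = 0.00457), under median-ratio scaling (0.0155) and under quantile normalization (0.0219). Its level is uncertain because the pseudogene Gm5066 shares 96.3% of 724 bases with it.

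Slc25a42, the coenzyme A carrier, rose from 5.38, 4.17 and 4.59 to 18.8, 14.7 and 7.68 FPKM, highest in irradiated 1 (log2 fold change 1.44, SE 0.32, adjusted p = 0.00691). Its adjusted p was 0.0553 under quantile normalization. Slc25a16, also linked to coenzyme A, rose by a log2 fold change of 0.67 (adjusted p = 0.00701), and Slc25a17, a peroxisomal member that carries nucleotide cofactors, rose from 19.0, 18.7 and 22.1 to 35.8, 26.5 and 24.4 FPKM (0.51, adjusted p = 0.0370). Neither was called under median-ratio scaling (adjusted p = 0.161 and 0.576) or quantile normalization (0.304 and 0.137). The Slc25a17 call was also lost without control 1 (adjusted p = 0.112), control 2 (0.122), control 3 (0.0575) or irradiated 2 (0.0525). The remaining 5 members of the group, Slc25a40 included, missed the threshold. Slc25a51, which imports NAD, had a log2 fold change of 0.59 (adjusted p = 0.233, or 0.0338 without irradiated 1), Slc25a26, which imports S-adenosylmethionine, 0.15 (0.431), although its irradiated libraries all lay above its controls, and Slc25a32, linked to folate and FAD, -0.38 (0.239). The last pair was called lower under quantile normalization (log2 fold change -0.57, adjusted p = 0.0439 for Slc25a26, and -1.55, 0.00777 for Slc25a32).

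Both pyrimidine nucleotide carriers, which supply the matrix with precursors for mitochondrial DNA and RNA, rose. Slc25a33 went from 0.968, 1.36 and 1.28 to 9.83, 3.85 and 3.73 FPKM and was highest in irradiated 1 (log2 fold change 2.04, SE 0.40, adjusted p = 0.00366). Slc25a36, much the more abundant, went from 33.8, 28.9 and 27.7 to 51.5, 44.1 and 40.0 FPKM, also highest in irradiated 1 (log2 fold change 0.58, SE 0.15, adjusted p = 0.0134). Quantile normalization called neither (adjusted p = 0.133 and 0.0708), and median-ratio scaling called Slc25a33 (0.0106) but not Slc25a36 (0.368). The Slc25a36 call was lost without control 2 (adjusted p = 0.0595) or control 3 (0.0580), and the pseudogene Gm13217 shares 99.6% of 544 bases with it.

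**Figure D3:**
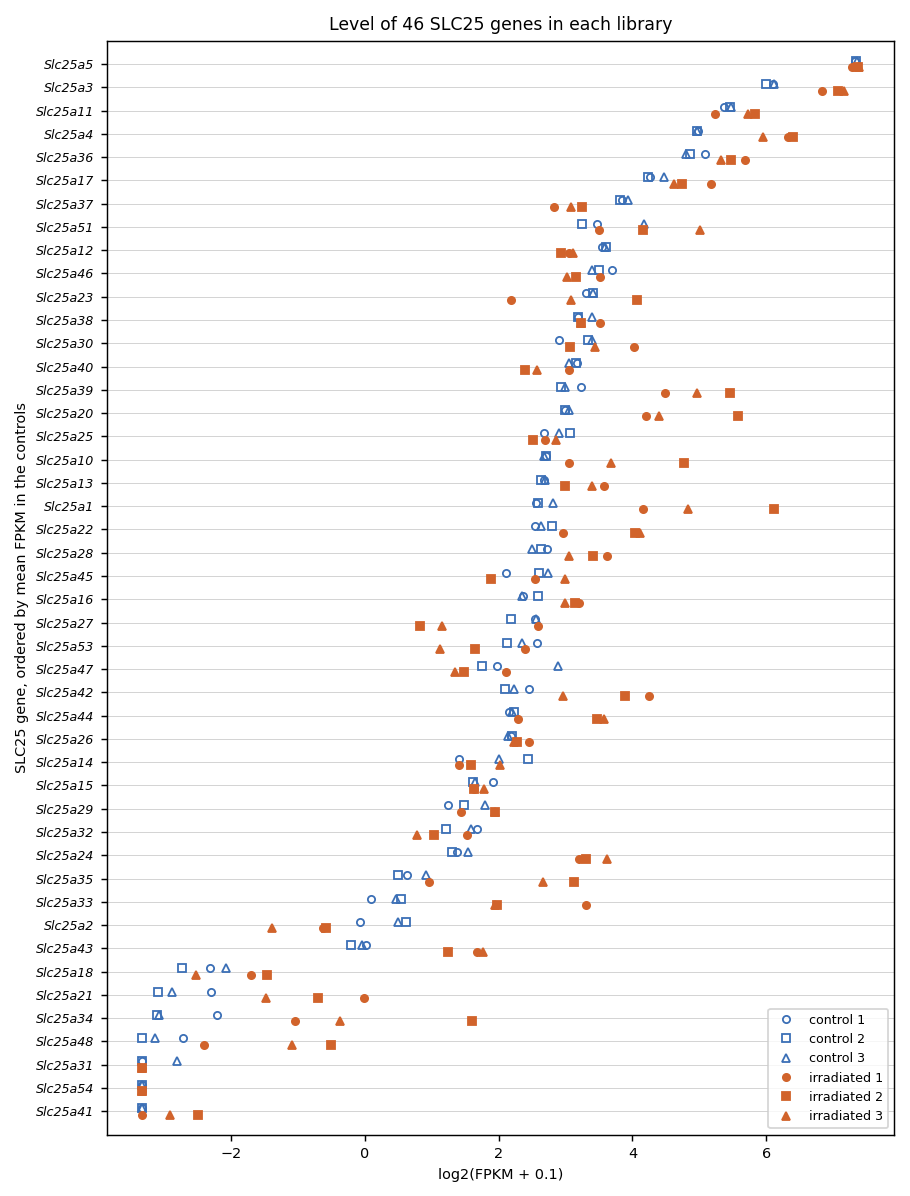
Level of 46 of the 47 SLC25 genes in each library, as log2(FPKM + 0.1), with open symbols for the 3 controls and filled symbols for the 3 irradiated libraries, ordered by the mean FPKM of the controls. Slc25a5 is at the top in every library, and Slc25a12 and Slc25a37 are among the genes whose irradiated points all lie to the left of the controls.

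Of the 9 amino acid carriers, 8 were tested, 3 rose and 2 fell. Median-ratio scaling called none higher and 2 lower, and quantile normalization none higher and 4 lower. The number higher was 0 without control 1 or 3 and 1 without control 2, irradiated 2 or irradiated 3, and the number lower was 1 without control 2, control 3 or irradiated 3. The aspartate/glutamate carriers of the malate-aspartate shuttle went in opposite directions. Slc25a12 (aralar, chr2:71271063-71367749) stood at 11.6, 12.0 and 11.9 FPKM in the controls and at 8.22, 7.54 and 8.55 FPKM in the irradiated libraries. The groups were tight and did not overlap, and the gene fell by 0.54 on the log2 scale (SE 0.13, adjusted p = 0.00818). Slc25a13 (citrin) stood at 6.27, 6.12 and 6.36 FPKM against 11.8, 7.82 and 10.4 FPKM and rose (log2 fold change 0.65, SE 0.18, adjusted p = 0.0173). The Slc25a13 call was lost without control 1 (adjusted p = 0.0542), control 2 (0.0615) or control 3 (0.0513) and under median-ratio scaling (0.273) and quantile normalization (0.379).

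Slc25a22, a glutamate carrier, rose from 5.71, 6.85 and 6.11 to 7.67, 16.4 and 17.2 FPKM, with irradiated 1 only a little above the controls (log2 fold change 1.05, SE 0.31, adjusted p = 0.0217). Slc25a44, which carries branched-chain amino acids, rose from 4.34, 4.58 and 4.51 to 4.77, 11.0 and 11.8 FPKM in the same manner (0.92, SE 0.34, adjusted p = 0.0479). Slc25a22 was not called without control 1 (adjusted p = 0.0721), control 3 (0.0648), irradiated 2 (0.0669) or irradiated 3 (0.0689). Slc25a44 was not called without control 1 (0.119), control 2 (0.107), control 3 (0.110), irradiated 2 (0.137) or irradiated 3 (0.143). Under median-ratio scaling Slc25a22 had an adjusted p of 0.0691 and Slc25a44 of 0.157.

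The ornithine carrier Slc25a2 fell from 0.854, 1.43 and 1.31 to 0.548, 0.570 and 0.282 FPKM, without overlap (log2 fold change -1.21, SE 0.39, adjusted p = 0.0284). It is a low gene that passed the filter on low values only through its controls (mean 1.20 FPKM, against 0.467 FPKM after irradiation). Its call was lost without control 2 (adjusted p = 0.117), control 3 (0.101) or irradiated 3 (0.0704). Its locus overlaps Gm37013, Gm37388 and Gm42416 on the opposite strand, and whether counting used strand is not given in the sources used here. Slc25a15, the main ornithine carrier of the urea cycle, had 3.66, 2.97 and 3.03 FPKM against 3.00, 3.01 and 3.33 FPKM (log2 fold change -0.04, adjusted p = 0.847) and -1.03 under quantile normalization (0.00753). Oat, the matrix enzyme that makes or uses ornithine, rose from 19.5, 19.8 and 19.7 to 97.4, 95.5 and 93.4 FPKM, with little spread in either group (log2 fold change 2.27, adjusted p = 5.3e-05). Slc25a29, a carrier of basic amino acids, and Slc25a38, which imports glycine for haem synthesis, had log2 fold changes of 0.26 (adjusted p = 0.370) and 0.06 (0.730), and both values were negative under median-ratio scaling (-0.11 and -0.32). Quantile normalization called Slc25a29 lower (-0.70, adjusted p = 0.0442).

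The mitoferrins, which import iron for haem and iron-sulfur clusters, changed in opposite directions. Slc25a37 (mitoferrin 1, chr14:69241848-69285112), the form that prevails in developing red cells, stood at 14.2, 13.9 and 15.2 FPKM in the controls and at 7.0, 9.38 and 8.37 FPKM after irradiation. All irradiated libraries were well below the controls, and the mean fell from 14.4 ± 0.640 to 8.25 ± 1.19 FPKM (SD, n = 3; log2 fold change -0.81, SE 0.15, adjusted p = 0.00311). Slc25a28 (mitoferrin 2) stood at 6.47, 6.13 and 5.56 FPKM against 12.3, 10.6 and 8.20 FPKM. It rose without overlap (log2 fold change 0.75, SE 0.18, adjusted p = 0.0103), though not under median-ratio scaling (0.163) or quantile normalization (0.216). The erythroid markers added up to 51.6, 90.8 and 139.6 FPKM in control thymus against 4.44, 7366 and 1198 FPKM in irradiated 1, 2 and 3. Their part in the level of Slc25a37 was not tested. Stretches of Slc25a37 of 381 or 382 bases are identical in Gm16867, Gm31748 and Gm37847, so its level is uncertain. Within a library, the log2 ratio of Slc25a28 to Slc25a37 was -1.13, -1.19 and -1.45 in the controls and 0.81, 0.17 and -0.03 after irradiation.

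The related carriers that parted could be compared by such ratios, for 6 pairs chosen with their values known. A common factor for all genes of a library leaves these ratios unchanged, but quantile normalization can change them. The mean log2 ratio moved from -0.07 ± 0.14 to 2.31 ± 0.82 (SD, n = 3) for Slc25a39 over Slc25a40, from -0.92 ± 0.05 to 0.29 ± 0.24 for Slc25a13 over Slc25a12, and from -1.26 ± 0.17 to 0.32 ± 0.44 for Slc25a28 over Slc25a37. It moved from -1.51 ± 0.26 to 0.70 ± 0.15 for Slc25a24 over Slc25a25 and from -4.66 ± 0.41 to -3.11 ± 0.63 for Slc25a33 over Slc25a36. In these pairs and in Slc25a4 over Slc25a5 the groups did not overlap (each exact permutation p = 0.1, adjusted over the 6 pairs 0.1). Since the pairs were chosen with their values known, the choice favoured this outcome, and the p-values are no support for it. Other pairs were not counted. The mean log2 ratio went from negative to positive in 4 of the 6, so that citrin stood above aralar, mitoferrin 2 above mitoferrin 1, Slc25a24 above Slc25a25 and Slc25a39, near equal to Slc25a40 in the controls, well above it.

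The 3 relatives of the uncoupling proteins were not called, although median-ratio scaling called 1 and quantile normalization 2 of them lower. Slc25a27 had 5.74, 4.45 and 5.81 FPKM against 5.91, 1.67 and 2.13 FPKM, with irradiated 1 above all controls and the other irradiated libraries below (log2 fold change -0.91, adjusted p = 0.111, or 0.000683 without irradiated 1). Slc25a14 and Slc25a30 had log2 fold changes of -0.28 (adjusted p = 0.441) and 0.30 (0.354). Slc25a27 was called lower under median-ratio scaling (-1.28, adjusted p = 0.0449) and quantile normalization (-1.83, 0.0392), and Slc25a14 under quantile normalization (-1.22, 0.0167). Slc25a46, an outer membrane protein of mitochondrial dynamics rather than a known transporter, had -0.30 (adjusted p = 0.168, or 0.0251 without irradiated 1) and was lower under median-ratio scaling (-0.68, 0.0225). It shares 374 identical bases with B930094E09Rik, which overlaps it on the opposite strand.

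Members given no role here number 8, of which 6 were tested, 3 rose and none fell. Median-ratio scaling called 2 higher and 2 lower, and quantile normalization 0 higher and 2 lower. Slc25a34 had 0.117, 0.0161 and 0.0185 FPKM in the controls and 0.384, 2.92 and 0.672 FPKM after irradiation (log2 fold change 2.85, SE 0.76, adjusted p = 0.0143). It passed the filter on low values only through its irradiated libraries and mainly irradiated 2, without which it was too low to test. Slc25a43 rose from 0.912, 0.769 and 0.874 to 3.08, 2.27 and 3.30 FPKM, without overlap (log2 fold change 1.63, SE 0.25, adjusted p = 0.00135). Slc25a35 had 1.45, 1.32 and 1.79 FPKM against 1.84, 8.67 and 6.25 FPKM, with irradiated 1 barely above the controls (1.57, SE 0.54, adjusted p = 0.0365). It shares 547 bases with Rangrf on the opposite strand and lost its call without control 1 (adjusted p = 0.0949), control 2 (0.102), control 3 (0.0733), irradiated 2 (0.102) or irradiated 3 (0.110). Quantile normalization called none of these 3 (adjusted p = 0.130, 0.450 and 0.393 for Slc25a34, Slc25a43 and Slc25a35). Slc25a45, Slc25a47 and Slc25a53 had log2 fold changes of -0.01 (adjusted p = 0.988), -0.56 (0.197) and -0.63 (0.131, or 0.00723 without irradiated 1). Slc25a47 and Slc25a53 were called lower under median-ratio scaling (adjusted p = 0.0491 and 0.0399) and under quantile normalization (log2 fold change -1.46, adjusted p = 0.0171, and -1.49, 0.0219).

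The remaining 6 genes averaged under 0.5 FPKM and were not tested. Slc25a54 was at 0 in every library, Slc25a31 at 0 in all but control 3 (0.0429 FPKM), and Slc25a41 at 0 in every control and in irradiated 1. Slc25a18, a glutamate carrier, lay between 0.0499 and 0.263 FPKM over the 6 libraries, and its groups overlapped. In Slc25a21, 0.103, 0.0171 and 0.0359 FPKM in the controls stood against 0.887, 0.513 and 0.258 FPKM, and in Slc25a48 0.0524, 0 and 0.0135 FPKM against 0.0901, 0.608 and 0.369 FPKM. In both, every irradiated library was above every control. The Slc25a21 gene overlaps Pax9, a transcription factor gene of the thymic epithelium, on the opposite strand.

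SLC25 levels were more even among controls than among irradiated libraries. The highest irradiated library was over 2 times the lowest in 16 of the 41 tested genes (39.0%, beside 28.9% of all genes tested), while this held among the controls for 3. The median ratio of highest to lowest was 1.59 in the irradiated and 1.20 in the control libraries (1.55 and 1.25 over all genes). No single irradiated library was always highest: irradiated 1, 2 and 3 were highest in 16, 12 and 13 genes. Slc25a1, Slc25a10, Slc25a20 and Slc25a34 were highest in irradiated 2 and lowest in irradiated 1, while Slc25a33 and Slc25a42 were highest in irradiated 1. Skeletal muscle markers, 7.84 to 9.28 FPKM in the controls, were at 8.88, 215 and 45.8 FPKM in irradiated 1, 2 and 3 (7 of 10 higher), and airway markers, 4.00 to 5.36 FPKM in the controls, at 57.4, 3599.7 and 53.2 FPKM (5 of 7 higher). No marker of these lists was at 0 in all libraries, and their part in the spread was not tested.

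**Figure D4:**
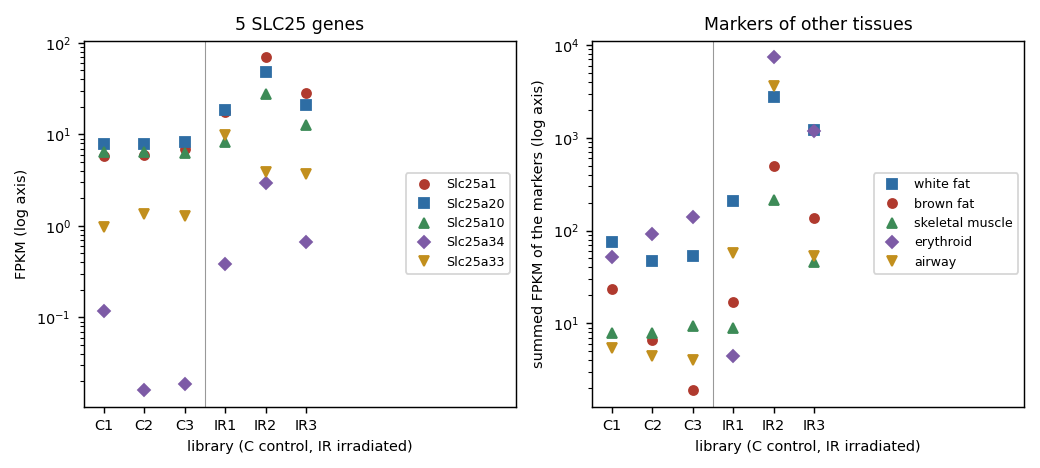
Left, FPKM of 5 SLC25 genes in each library on a log axis. Right, summed FPKM of the markers of 5 other tissues in the same libraries on a log axis. Slc25a1, Slc25a20, Slc25a10 and Slc25a34 are highest in irradiated 2, where the white fat (2735 FPKM), muscle (215 FPKM) and erythroid (7366 FPKM) sums are also highest, and Slc25a33 is highest in irradiated 1.

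The authors' deposited table gives fold changes and adjusted p-values of its own, computed with DESeq2. For 46 SLC25 genes it lists an adjusted p, and by a threshold of 0.05 the authors' deposited table has 14 higher (beside 32.5% of its genes) and 2 lower (beside 14.0%). Of these, 12 higher and both lower were also called by limma. In the authors' deposited table Slc25a24 has a log2 fold change of 1.77 (adjusted p = 5.35e-07), Slc25a1 of 2.53 (4.05e-07), Slc25a4 of 1.1 (0.000925), Slc25a37 of -1.14 (0.00054) and Slc25a2 of -1.59 (0.0181). The authors' deposited table does not reach the threshold for Slc25a3 (0.62, adjusted p = 0.0759) or Slc25a12 (-0.58, 0.116). Nor does it for Slc25a28 (0.19, 0.732), Slc25a13 (0.43, 0.339), Slc25a36 (0.36, 0.400) or Slc25a17 (0.39, 0.367), which limma called higher. Slc25a44 (0.80, 0.0800) and Slc25a16 (0.69, 0.0810), also called higher by limma, miss it too. The authors' deposited table gives Slc25a5 a log2 fold change of -0.23 (0.593). It has Slc25a21 (3.01, 0.000592) and Slc25a48 (3.70, 0.00117) higher, which were under the filter used here.

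The lncRNA table lists 105 transcripts of 34 SLC25 genes, by GENCODE M21 type 58 retained introns and 47 processed transcripts, which are RNAs of a coding gene that are not annotated as coding. Of the 78 transcripts tested, from 31 genes, 5 were higher (beside 9.11% of all transcripts tested) and 4 lower (beside 18.4% of all). In 10 every irradiated library was above every control (beside 14.5% of all) and in 17 below (beside 33.1% of all). Their median log2 fold change was -0.30, beside -0.43 for all transcripts. Each was set beside its own gene in the mRNA table, which was tested separately: 65 of the 78 (83.3%) had the lower fold change of the 2, as did 75.9% of all transcripts with such a gene.

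Slc25a5 showed the gap in 1 retained-intron transcript but hardly in another. Its transcript ENSMUST00000126608 (chrX:36795654-36797643) fell from 7.72, 8.65 and 8.33 to 5.23, 4.05 and 3.16 FPKM, without overlap (log2 fold change -0.9994, adjusted p = 0.0251). The gene in the mRNA table was not called. Its transcript ENSMUST00000156672 had 2.86, 3.26 and 2.24 FPKM against 1.66, 2.86 and 3.46 FPKM and was not called (-0.11, adjusted p = 0.822). The retained-intron transcript of Slc25a37, ENSMUST00000184497, was about as abundant as the mRNA-table value of its gene. It fell from 11.9, 12.6 and 13.9 to 4.54, 6.10 and 6.07 FPKM (-1.20, adjusted p = 0.0105). Slc25a23 ENSMUST00000165187 fell from 1.62, 1.58 and 1.92 to 0.801, 0.473 and 0.656 FPKM (-1.30, adjusted p = 0.0167), low in every irradiated library where the gene itself scattered. Slc25a12 ENSMUST00000130715 fell too (-1.08, adjusted p = 0.0314). The largest rise among the called transcripts was that of Slc25a36 ENSMUST00000155291, from 2.24, 3.37 and 0.563 to 6.39, 6.65 and 6.59 FPKM (log2 fold change 1.92, adjusted p = 0.0407). The controls of this transcript were spread and its irradiated libraries close together. Slc25a39 ENSMUST00000153395 (1.56, adjusted p = 0.0499), Slc25a1 ENSMUST00000147384 (1.48, 0.0237) and Slc25a42 ENSMUST00000139333 (1.46, 0.0275) and ENSMUST00000134596 (1.09, 0.0216) rose with their genes. Whether a read could count in both tables is not given in the sources used here. The counts changed with 1 library left out. Without control 1, 2 or 3 in turn 0, 2 and 1 transcripts were higher and 1, 1 and 0 lower. Without irradiated 1, 2 or 3 in turn 7, 1 and 1 were higher and 13, 2 and 2 lower. Scaling also moved them, to 12 higher and 0 lower under median-ratio scaling and 8 higher and 1 lower under quantile normalization. The shares of all transcripts called under these scalings were not counted.

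**Figure D5:**
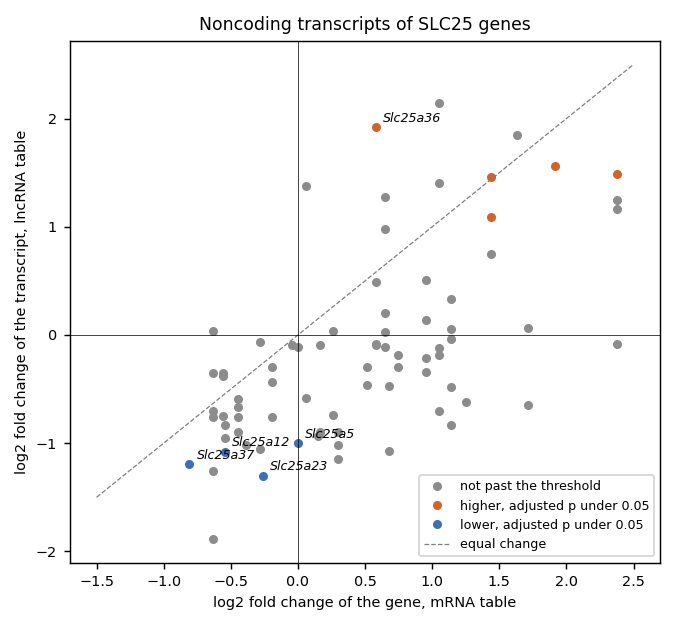
Log2 fold change (irradiated minus control) of 78 transcripts of SLC25 genes in the lncRNA table against that of their gene in the mRNA table, coloured by the call of the transcript. Of the points, 65 lie below the dashed line of equal change, among them the Slc25a5, Slc25a37, Slc25a23 and Slc25a12 transcripts that fell.

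Other genes of mitochondrial transport were counted in the same fit, where 42.4% of all genes were higher and 20.9% lower. Of 13 genes for the import of carriers, 1 was higher and 4 lower. Agk, a subunit of the TIM22 complex, fell from 13.3, 14.2 and 16.8 to 7.57, 7.06 and 6.86 FPKM (log2 fold change -1.02, adjusted p = 0.000919), without overlap. Timm9 (-1.02, 0.00343) and Timm8a1 (-1.15, 0.00453), small chaperones of the intermembrane space, and the receptor Tomm70a (-0.43, 0.0370) also fell. The gene that rose was Timm10 (0.47, 0.0484), the partner of Timm9, which was named after its values were seen. No import gene was called higher without control 1, 2 or 3 or irradiated 3 (0 in each), and Timm10 was not called higher under median-ratio scaling, quantile normalization or equal summed FPKM, which called 8, 6 and 3 import genes lower.

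Of 5 genes of the carrier family under other names, 3 were higher: Ucp3, an uncoupling protein (log2 fold change 3.73, adjusted p = 0.0019), Mtch2 (0.92, 0.00123) and Mtch1 (0.52, 0.0183). Ucp3 stood at 1.6, 10.0 and 3.30 FPKM in irradiated 1, 2 and 3, in the order of the muscle and brown fat sums given above, whose part was not tested. It passed the filter on low values only through its irradiated libraries. All 5 were higher without irradiated 1. Ucp2, the uncoupling protein of lymphoid tissue, was not called (0.23, 0.352), nor was Ucp1, the uncoupling protein of brown fat (4.09, 0.0855). Of 19 other genes of mitochondrial transport, 9 were higher and 2 lower, with a median of 0.45. Cpt1c (3.82, 0.00014) and the sideroflexin Sfxn5 (2.496, 0.000634) rose, the former passing the filter only through its irradiated libraries. Cpt1c was listed beside Cpt1a and Cpt2, and its part in mitochondrial transport was not tested.

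Of 17 tested enzymes that make or use what the carriers bring, 7 were higher and 3 lower. Beside Oat, the haem synthesis enzymes Alas1 (log2 fold change 2.21, adjusted p = 0.000717) and Fech (1.42, 0.00151) rose. Of 16 tricarboxylic acid cycle genes, 4 were higher and none lower, with a median of 0.85. Suclg2 (1.13, 0.0114), Idh3b (0.99, 0.0160), Sdhc (1.21, 0.0189) and the citrate synthase gene Cs (1.26, 0.0451) rose. Cs stood at 40.6, 167 and 87.7 FPKM in irradiated 1, 2 and 3 against 33.1 to 36.3 FPKM in the controls, an order shared with Slc25a1. Without irradiated 1, 15 of the 16 cycle genes were higher. Without control 1, 2 or 3 in turn 1, 1 and 2 were, without irradiated 3 also 2, and under median-ratio scaling 1.

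Of 10 genes of mitochondrial biogenesis, 2 were higher and 4 lower. Nrf1, the transcription factor whose motif was searched above, fell from 33.8, 33.4 and 28.4 to 13.0, 8.09 and 10.9 FPKM (log2 fold change -1.60, adjusted p = 0.000513), well below every control in each irradiated library. Gabpa, an ETS factor of mitochondrial genes (-0.71, 0.00457), and Tfam, which packs mitochondrial DNA (-0.83, 0.0149), also fell, and the coactivator Ppargc1a rose from a low level (2.54, 0.0105), with 0.468, 2.12 and 0.958 FPKM in the irradiated libraries against at most 0.1502 FPKM. Ppargc1a passed the filter on low values only through its irradiated libraries, and without irradiated 2 it was too low to test, which left 9 genes. Without control 1, 2 or 3 in turn 2, 3 and 2 biogenesis genes were lower, and without irradiated 1, 2 or 3 in turn 5, 4 and 3. The number higher was 1, 1 and 2 without control 1, 2 or 3, and 3, 0 and 1 without irradiated 1, 2 or 3.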

How the data were processed

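For 3 control and 3 irradiated libraries, thymus polyA RNA was extracted with TRIzol and made into libraries with NEBNext kits, per the labels. The authors deposited 1 FPKM value per library for each mRNA gene and lncRNA transcript, and the deposited group means were not used. The deposited log2 fold changes and p-values come from DESeq2 (version 1.10.1), per the submitters' processing notes. Not given in the sources used here are the aligner, the counting tool, strand use and the build. All 126 SLC25 transcripts have the coordinates of GENCODE M21 (GRCm38), which were printed.

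FPKM values were tested as log2(FPKM + 0.1) with limma 3.58.1 in R 4.3.3 (group only, abundance trend), for genes averaging at least 0.5 FPKM, or lncRNA transcripts averaging at least 0.2 FPKM, with Benjamini-Hochberg adjustment over each table and a threshold of 0.05. The fit was tested on simulated data. Of 53063 lncRNA lines, 62 with only overflow text were dropped, which left 53001 transcripts. Sums, shares and ratios were tested by exact two-sided permutation over libraries. Depth was estimated from the smallest step of FPKM times length. Near copies were sought with BLAST 2.17.0 (at least 95% identity over 300 bases). Alternatives were other pseudocounts, filters and scalings, no trend, a replicate block and each library left out. The members and lists were chosen with earlier results of these data known.

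Values in every library were given for up to 8 of the largest calls each way, the 4 SLC25 genes highest in the controls and members of 1 role set against each other, in pathway lists the 4 genes with the smallest adjusted p were named, and in the lncRNA table the 3 largest called changes each way. Further genes were named for their place beside a member. Some genes that the counts include are not reported here by name.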

Additional observations from a re-analysis of the deposited data

How the results depend on the processing

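Of the 41 SLC25 genes tested, the number called higher was 6 under quantile normalization and 10 under median-ratio scaling, where the number called lower was 14 and 9, against 19 and 3. Leaving out 1 library in turn gave 12 to 22 higher and 2 to 7 lower. The median log2 fold change was 0.22 under quantile normalization and 0.13 under median-ratio scaling, beside -0.07 and 0.02 for all genes. With 1 library left out it was 0.33 to 0.52, beside 0.315 to 0.46 for all genes. It was then below that of all genes without control 2, irradiated 1 or irradiated 3. The difference in summed FPKM was 86.3 under median-ratio scaling. The number of lncRNA-table transcripts called higher was 8 under quantile normalization, 12 under median-ratio scaling and 0 to 7 with 1 library left out, and the number lower 1, 0 and 0 to 13, with 2 lower under a replicate block. The cause was not tested. The share of all genes or transcripts called was not counted with 1 library left out or under a replicate block. Nor was it counted for transcripts under other scalings.

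Fold changes that changed sign were those of genes not called with the levels as deposited. Under quantile normalization they were -0.0283 (Slc25a30), -0.70 (Slc25a29), -0.57 (Slc25a26) and -0.28 (Slc25a38). There Slc25a29 and Slc25a26 were called lower (limma adjusted p = 0.0442 and 0.0439). Under median-ratio scaling they were -0.0818 (Slc25a30), -0.11 (Slc25a29), -0.22 (Slc25a11), -0.23 (Slc25a26) and -0.32 (Slc25a38), under equal summed FPKM -0.0349 (Slc25a38), and at a pseudocount of 1 0.00018 (Slc25a45). With 1 library left out, they ran from -0.0314 to 0.13 for Slc25a38, -0.01995 to 0.032 for Slc25a5, -0.26 to 0.29 for Slc25a45, -0.0966 to 0.0495 for Slc25a15 and -0.74 to 0.20 for Slc25a23. The low genes Slc25a34 and Slc25a2 kept their sign, but their size depended on the pseudocount. At pseudocounts of 0.01 and 1, Slc25a34 had log2 fold changes of 4.34 and 0.99, and Slc25a2 of -1.37 and -0.58.

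Replicate numbers were taken to pair no samples, since correlations of same-numbered deviations were 0.06, -0.04 and 0.05. With the replicate number as a block 18 SLC25 genes were higher and 2 lower, and 39 of 41 stayed on their side of the threshold. Depth limits the 6 genes under 0.5 FPKM, where 1 fragment per kilobase is worth 0.0391 to 0.0456 FPKM.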
